A study of Mus musculus with 8 samples.

Results

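The genes described here encode the semaphorins, plexins, neuropilins, ephrins, Eph receptors, Slits, Robos, netrins and netrin receptors, measured in astrocytes sorted from the mouse brain. They were chosen by name: symbols of the Sema, Plxn, Epha, Ephb, Efna, Efnb, Slit, Robo, Ntn and Unc5 families together with Nrp1, Nrp2 and Dcc, with 15 or more reads summed over all libraries. Of 70 annotated genes of these families, 47 reached that total, among 15458 genes of the whole data set that did so. The other 23 had fewer reads, and 6 of them had none. The rule used names and total reads and no regional difference, but it was set with earlier results of these data known. The astrocytes came from cortical and from subcortical tissue of 4 wild-type (WT) mice at postnatal day 29, mice 2 and 3 being female and mice 1 and 4 male. Each mouse gave 1 cortical and 1 subcortical library, and no agent or transgene is named in the labels. The sources used here do not give the subcortical structures taken or the gate by which cells were sorted.

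Guidance proteins steer growing axons and migrating cells by attraction or repulsion. Netrins bind Dcc and the Unc5 receptors, semaphorins bind plexins with or without a neuropilin, ephrins bind Eph receptors on the neighbouring cell, and Slits bind Robos. In the postnatal brain the same proteins act at contacts between astrocytes, synapses and vessels, and ephrin and Eph proteins are known to take part in signalling between astrocytes and dendritic spines.

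Of the 43 genes with enough reads to be tested, 6 differed between regions, and the proximal promoters of 4 of these show what lies upstream of the genes on which the results turn. They are the 250 bases before the annotated start, from RefSeq, assembly GRCm38.p6, printed 5′ to 3′ on the gene's strand. Capitals mark GC boxes, the letters GGGCGG or their reverse complement CCGCCC. The Unc5c promoter is chr3:141465314-141465563 on the plus strand, that of Ephb1 is chr9:102354694-102354943 on the minus strand, that of Nrp1 is chr8:128358823-128359072 on the plus strand, and that of Unc5b is chr10:60831582-60831831 on the minus strand. Unc5c and Ephb1 were higher in cortical astrocytes, and Nrp1 and Unc5b were lower.
Unc5c: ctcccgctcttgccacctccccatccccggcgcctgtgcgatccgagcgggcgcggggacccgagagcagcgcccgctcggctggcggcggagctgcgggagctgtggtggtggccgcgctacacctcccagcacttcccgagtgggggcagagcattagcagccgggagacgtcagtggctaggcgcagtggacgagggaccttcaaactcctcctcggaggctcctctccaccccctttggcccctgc
Ephb1: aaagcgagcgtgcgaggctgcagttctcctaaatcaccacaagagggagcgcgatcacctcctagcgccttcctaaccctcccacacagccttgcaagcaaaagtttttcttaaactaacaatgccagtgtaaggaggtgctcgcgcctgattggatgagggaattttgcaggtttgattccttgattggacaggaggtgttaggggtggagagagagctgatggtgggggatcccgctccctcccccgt
Nrp1: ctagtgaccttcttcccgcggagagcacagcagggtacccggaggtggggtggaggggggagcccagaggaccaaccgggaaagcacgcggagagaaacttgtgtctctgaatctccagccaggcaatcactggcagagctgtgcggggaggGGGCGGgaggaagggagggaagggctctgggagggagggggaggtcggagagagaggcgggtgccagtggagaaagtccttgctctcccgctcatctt
Unc5b: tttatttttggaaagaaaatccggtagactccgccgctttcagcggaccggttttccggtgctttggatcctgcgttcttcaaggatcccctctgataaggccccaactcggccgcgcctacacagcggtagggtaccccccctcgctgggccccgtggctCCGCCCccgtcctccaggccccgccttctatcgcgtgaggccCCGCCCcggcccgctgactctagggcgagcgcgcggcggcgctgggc
Bases G and C made up 71.2% of the Unc5c window, 54% of the Ephb1 window, 64.4% of the Nrp1 window and 66.8% of the Unc5b window. Unc5b held 2 GC boxes, Nrp1 held 1, and the windows of Unc5c and Ephb1 held none. The GC box stood in 35 of 50 promoter entries of 37 guidance genes (70%), against 32.7% of all 32851 promoter entries of the same length. This motif was added after the promoters were seen, and genes with several entries counted more than once. No enrichment was tested. All motifs were searched on both strands. The letters TAATTA stood in 1 of the 50 guidance gene promoters (2%) and in 4.84% of all promoters. CACGTG stood in 3 of the 50 (6%) and in 6.02% of all. The full palindromic site of nuclear factor I stood in 0 of the 50 and in 0.0365% of all. None of these 3 motifs stood in the 4 windows printed above, and none of the motifs contains another.

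The libraries read transcripts at their 3′ ends, so that levels are given as CPM, counts per 1000000 counts of a library, without division by length. Gene counts summed to 3537852 to 4060891 per cortical library and to 2484717 to 3829804 per subcortical library, and a count of 0 in a library allows up to 0.70 to 1.44 CPM. Astrocyte markers summed to 28434 to 31206 CPM in cortical libraries, against 20253 to 22199 CPM in subcortical ones, and were above every other marker list in each library. The neuron list summed to 305 to 683 CPM in cortical libraries, against 107 to 161 CPM in subcortical ones (exact two-sided permutation p = 0.0286, the smallest that 4 against 4 allows). The astrocyte list gave the same permutation p of 0.0286, and of its 12 genes 2 were higher and 1 was lower in cortical libraries. Here and below, the permutations shuffled libraries freely and ignored that each mouse gave both regions. Of the 11 tested neuron genes 3 were higher in cortical libraries (Slc17a7, Camk2a and Nrgn) and 1 was lower (Nefl). The oligodendrocyte list summed to 836 to 1346 CPM in cortical libraries, against 2228 to 5660 CPM in subcortical ones (exact permutation p = 0.0286), and 8 of its 10 genes were lower in cortical libraries. No gene of the neuron or oligodendrocyte list was at 0 in all libraries. Oligodendrocyte progenitor markers summed to 230 to 299 CPM in cortical libraries, against 382 to 665 CPM in subcortical ones (exact permutation p = 0.0286). Olig1 and Olig2 were lower in cortical libraries among its 4 tested genes, Gpr17 was at 0, and Pdgfra had 11 counts in all. Microglial markers summed to 162 to 360 CPM in cortical libraries, against 115 to 204 CPM in subcortical ones, and 3 of 8 tested genes were higher. Ependymal markers were lower for 1 of 6 genes, and the endothelial (2 tested) and mural (7 tested) lists held no changed gene. In sorted samples of this kind, fewer cells of a type and less RNA per cell cannot be told apart. Xist counts separated the 2 female mice from the 2 male mice in both regions, as labelled.

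**Figure D1:**
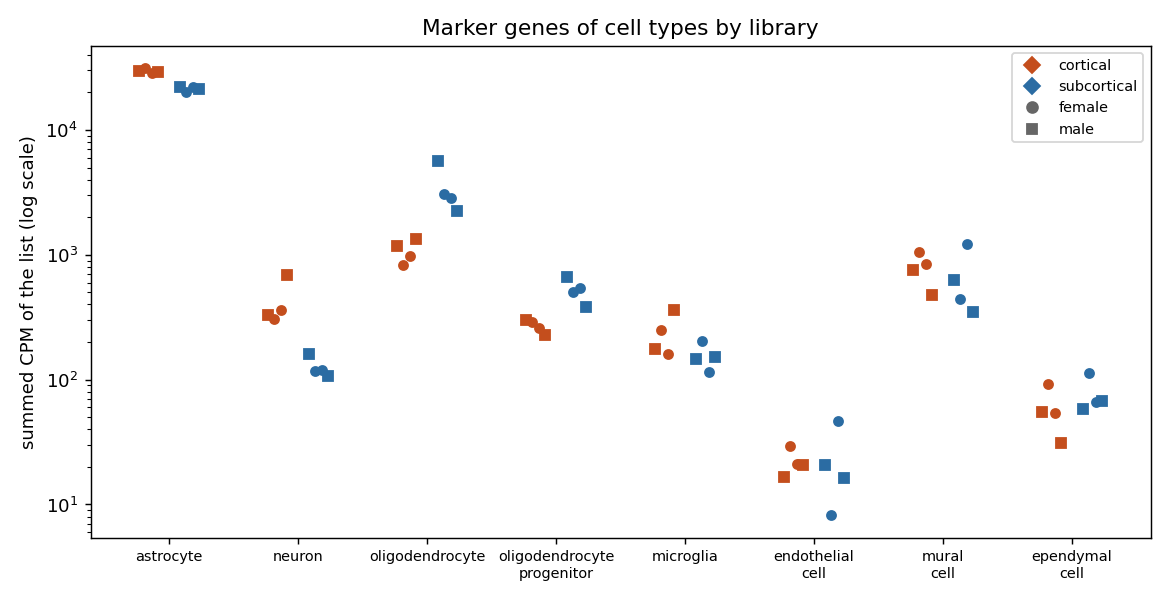
Summed CPM of each cell type marker list in each library on a log scale, cortical left of subcortical, with circles for females and squares for males. Astrocyte markers lay between 28434 and 31206 CPM in cortical libraries and between 20253 and 22199 CPM in subcortical ones. Neuron markers were also higher in every cortical library, and oligodendrocyte markers were higher in every subcortical library.

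Cortical against subcortical astrocytes were compared with edgeR's quasi-likelihood test over 11781 genes, with Benjamini-Hochberg adjustment at 0.05. A gene past that threshold is described as called or changed. This main test was unpaired: it held no term for the mouse, although each mouse gave both regions. The 6 changed guidance genes divided evenly by direction. Dcc, Unc5c and Ephb1 were higher in cortical astrocytes, and Unc5b, Nrp1 and Efnb3 were lower. This was 13.95% of the 43 tested guidance genes, beside a background of 6.81% of all tested genes (3.42% higher and 3.39% lower). Every one of the 6 moved the same way in 4 of 4 mice, as did 780 of all 802 called genes. The regions did not overlap for any of the 6, which rests on the same values as the calls. Over all tested genes 6.54% were higher and 5.64% lower in cortical libraries without overlap. The fitted fold was above 2 for each of the 6 and for 542 of the 802, while single mice differed by less for Unc5c, Unc5b, Nrp1 and Efnb3. With the mouse as a block, 4 were higher and 3 lower, Robo2 being added. In that fit the edgeR adjusted p was 0.0403 for Dcc, 0.00747 for Unc5c and 1.2e-05 for Ephb1. It was 0.00876 for Unc5b, 3.4e-04 for Nrp1 and 0.0423 for Efnb3. In the main test without the cortical library of mouse 2, or that of mouse 3, 1 gene stayed higher (Ephb1). Over the 43 genes the median log2 fold change was 0.04, against -0.01 over all genes, with 22 positive and 21 negative values. The median absolute log2 fold change was 0.59 for the guidance genes and 0.35 for all genes. The 2 sets were not matched for expression level. Uncalled genes with few reads, such as Ntn1 (-1.31 ± 0.94 SE) and Ntn4 (1.34 ± 1.08 SE), entered the guidance value.

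**Figure D2:**
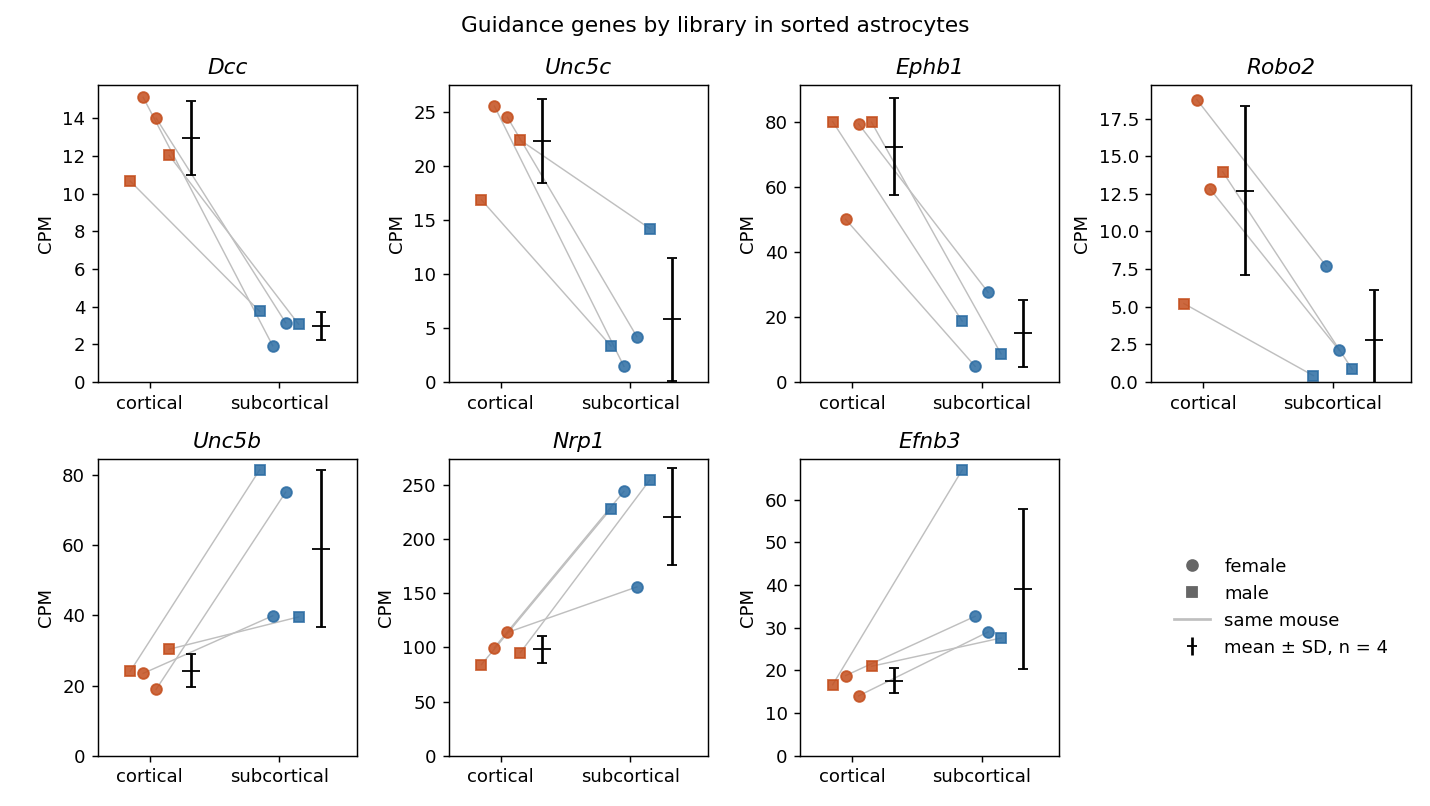
CPM of 7 guidance genes in each library, cortical left of subcortical, with lines joining the samples of 1 mouse and bars for mean ± SD (n = 4 per region; the lower bar of Robo2 is cut at 0). Dcc, Unc5c and Ephb1 lay higher in every cortical library, Unc5b, Nrp1 and Efnb3 lay lower in every one, and the Robo2 values of the regions overlapped.

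Of the families chosen by name, the netrin receptors, here Dcc, Unc5b and Unc5c, were the one in which all tested genes changed, in opposite directions. Dcc (ENSMUSG00000060534), the receptor through which netrin attracts axons, had 10.7, 15.1, 14.0 and 12.04 CPM in cortical libraries of mice 1 to 4, against 3.74, 1.92, 3.15 and 3.06 CPM in subcortical libraries. Each cortical library was well above each subcortical one, although the subcortical values came from only 9, 4, 9 and 11 reads. Cortical libraries averaged 13.0 ± 1.99 CPM and subcortical ones 2.97 ± 0.761 CPM (SD, n = 4 each), 4.3-fold higher in cortical astrocytes (edgeR adjusted p = 0.0186, log2 fold change 2.10 ± 0.55 SE). Unc5c (ENSMUSG00000059921), a receptor for netrin-driven repulsion, had 16.9, 25.5, 24.5 and 22.4 CPM in cortical libraries, against 3.33, 1.44, 4.19 and 14.2 CPM in subcortical ones. The subcortical library of mouse 4 stood near the cortical range and the other 3 stood far below it, with 8, 3 and 12 reads. Cortical libraries averaged 22.3 ± 3.87 CPM and subcortical ones 5.79 ± 5.73 CPM (SD, n = 4 each), higher in cortical astrocytes (edgeR adjusted p = 0.023, log2 fold change 1.88 ± 0.50 SE). Without the subcortical library of mouse 4 the log2 fold change was 2.85 (adjusted p = 6.9e-04). Unc5b (ENSMUSG00000020099), a netrin receptor of the same group that is also known for its part in vessel guidance, went the other way. It had 24.1, 23.5, 18.9 and 30.3 CPM in cortical libraries, against 81.6, 39.9, 75.1 and 39.6 CPM in subcortical libraries. The subcortical values fell into a high and a lower pair, and both pairs were above all cortical values. Cortical libraries averaged 24.2 ± 4.70 CPM and subcortical ones 59.0 ± 22.5 CPM (SD, n = 4 each), 2.44-fold lower in cortical astrocytes (log2 fold change -1.28 ± 0.28 SE, edgeR adjusted p = 0.0052).

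The make-up of netrin receptor reads is given as the share of each gene. Unc5b supplied 40.7 ± 7.08% of the reads of the 3 receptors in cortical libraries and 86.2 ± 11.1% in subcortical libraries (SD, n = 4 each). Unc5c supplied 37.4 ± 4.62% in cortical and 9.29 ± 10.498% in subcortical libraries, and Dcc supplied 21.8 ± 2.67% in cortical and 4.47 ± 0.669% in subcortical ones. The ranges of Unc5b did not overlap: its highest cortical share was 46.8% (mouse 4, exact Clopper-Pearson 95% interval 40.8 to 53.0%), and its lowest subcortical share was 69.6% (mouse 4, 62.8 to 75.8%). These intervals cover counting error only. The remaining receptor genes of the family were sparse, and Unc5d and Unc5cl had no reads.

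The call of Unc5b held without each library in turn (adjusted p at most 0.0369). That of Dcc was lost without the cortical library of mouse 2 or 3, with log2 fold changes of 2.02 and 2.06 that were near the main one (edgeR adjusted p = 0.0642 and 0.0655). That of Unc5c was lost without the cortical library of mouse 2 or 3 (log2 fold change 1.82 and 1.84) or the subcortical library of mouse 1, 2 or 3 (1.69, 1.58 and 1.74), with an adjusted p of 0.0551 to 0.0788. Neuron markers were also higher in every cortical library, at 305 to 683 CPM against 107 to 161 CPM in subcortical ones, and the part of neuronal RNA in the levels of Dcc, Unc5c and Ephb1 was not tested.

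Netrins themselves were low and none changed. Ntn3, a secreted netrin, was the most abundant, with 6.45, 5.21, 5.84 and 1.20 CPM in cortical libraries, against 8.74, 8.17, 5.59 and 13.1 CPM in subcortical ones. The ranges overlapped (log2 fold change -0.93, edgeR adjusted p = 0.522). Ntn1, the best known attractant of the family, averaged 1.56 ± 1.39 CPM in cortical libraries, against 3.92 ± 1.31 CPM in subcortical ones (SD, n = 4 each; log2 fold change -1.31, edgeR adjusted p = 0.548). Ntn4 had a log2 fold change of 1.34 (adjusted p = 0.604). Reads of Dcc, Unc5b and Unc5c together were more plentiful than netrin reads in both regions. Summed mean levels were 59.5 and 12.2 CPM in cortical and 67.8 and 15.1 CPM in subcortical astrocytes.

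Semaphorins were the family with the most reads, and neither they nor their plexin receptors held a changed gene among 12 and 9 tested. Sema4a, a membrane-bound semaphorin, was the most abundant guidance gene, with 337, 291, 301 and 389 CPM in cortical libraries, against 354, 348, 248 and 420 CPM in subcortical ones. The ranges overlapped throughout (log2 fold change -0.06 ± 0.18 SE, edgeR adjusted p = 0.926). Sema4b, of the same subclass, averaged 223 ± 56.2 CPM in cortical libraries, against 231 ± 62.6 CPM in subcortical ones (SD, n = 4 each; adjusted p = 0.95). Plxnb1, a plexin that binds class 4 semaphorins, had 141, 205, 202 and 164 CPM in cortical libraries, against 141, 135, 201 and 136 CPM in subcortical ones. The lowest cortical value was at the level of 3 subcortical ones, while the subcortical library of mouse 3 was as high as the highest cortical ones (log2 fold change 0.21, edgeR adjusted p = 0.637).

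Several semaphorin and plexin genes leaned to a region without passing the threshold. Sema4d, a ligand of Plxnb1, had 29.03, 39.6, 25.5 and 24.6 CPM in cortical libraries, against 15.4, 13.0, 22.0 and 7.52 CPM in subcortical ones. All cortical values were above all subcortical values (log2 fold change 1.04 ± 0.34 SE, edgeR adjusted p = 0.078). Sema7a, a semaphorin anchored to the membrane by a lipid, had a log2 fold change of 1.36 (adjusted p = 0.174). Plxna3 had 1.02 (0.264) and Plxna4 had -0.95 (0.19); both are receptors of class 3 semaphorins acting with neuropilins. For Sema4a, Sema4b, Sema5b, Sema6a, Sema6d, Plxna1, Plxnb1 and Plxnb2 the 95% interval of the regional difference lay within 2-fold in either direction, so that a larger difference was outside it. The secreted class 3 semaphorins, the main neuropilin ligands, were close to absent: none of their 7 genes reached 15 reads, and together they had 9 cortical and 28 subcortical reads.

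Nrp1 was the changed gene of this group. Nrp1 (ENSMUSG00000025810) encodes neuropilin 1, a co-receptor for class 3 semaphorins and for vascular endothelial growth factor. It had 84.1, 99.9, 114 and 95.1 CPM in cortical libraries, against 228, 244, 156 and 255 CPM in subcortical libraries. The lowest subcortical value, of mouse 3, was above the highest cortical one, of the same mouse. Cortical libraries averaged 98.2 ± 12.3 CPM and subcortical ones 221 ± 44.6 CPM (SD, n = 4 each), 2.25-fold lower in cortical astrocytes (log2 fold change -1.17 ± 0.19 SE, edgeR adjusted p = 2.2e-04). The call held without each library in turn, with an adjusted p of at most 0.00208. Nrp2, the paralog with its own set of semaphorin ligands, was low in both regions, at 3.77 ± 2.67 CPM in cortical libraries, against 3.66 ± 0.851 CPM in subcortical ones (SD, n = 4 each; adjusted p = 0.991). Endothelial markers, whose cells use Nrp1, summed to 16.6 to 29.2 CPM in cortical libraries, against 8.17 to 46.8 CPM in subcortical ones (exact permutation p = 0.943). Of their 10 genes 8 had reads, Cdh5 and Tek were at 0, and the part of endothelial RNA in the Nrp1 level was not tested.

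Among the Eph receptors Ephb1 showed the largest difference of any called guidance gene. Ephb1 (ENSMUSG00000032537), a tyrosine kinase receptor for B-class ephrins, had 80.1, 50.1, 79.4 and 80.0 CPM in cortical libraries, against 18.7, 4.81, 27.6 and 8.64 CPM in subcortical libraries. Cortical levels of 3 mice were nearly equal, mouse 2 was lower in both regions, and the groups lay far apart. Cortical libraries averaged 72.4 ± 14.9 CPM and subcortical ones 14.9 ± 10.3 CPM (SD, n = 4 each), a 4.81-fold difference (log2 fold change 2.27 ± 0.37 SE, edgeR adjusted p = 2.5e-04). Its call held without each library in turn (adjusted p at most 0.00199).

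Ephb3, a receptor of the same subclass, was not called. It was the most abundant Eph receptor, with 194, 194, 271 and 95.6 CPM in cortical libraries, against 230, 191, 207 and 108 CPM in subcortical ones. Mouse 4 was lowest in both regions, and the regions overlapped throughout (log2 fold change 0.04, edgeR adjusted p = 0.97, interval within 2-fold). Of all reads of EphB receptor genes, Ephb1 supplied 27.6 ± 10.7% in cortical and 6.74 ± 3.53% in subcortical libraries, and Ephb3 supplied 65.8 ± 10.2% in cortical and 85.9 ± 3.81% in subcortical ones (SD, n = 4 each). Epha5, a receptor for A-class ephrins, had 33.5, 29.7, 32.003 and 35.4 CPM in cortical libraries, against 20.0, 20.7, 21.7 and 14.2 CPM in subcortical ones. Its groups did not overlap, yet it was not called (log2 fold change 0.78, edgeR adjusted p = 0.112). Epha4, known as an astrocyte and neuron receptor that curbs outgrowth, averaged 65.1 ± 19.1 CPM in cortical libraries, against 85.2 ± 38.6 CPM in subcortical ones (SD, n = 4 each; adjusted p = 0.535).

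Efnb3 (ENSMUSG00000003934), a B-class ephrin known as a myelin-borne inhibitor of axon growth, was the changed ligand. It had 16.6, 18.8, 14.0 and 21.0 CPM in cortical libraries, against 67.0, 32.7, 29.005 and 27.6 CPM in subcortical libraries. The subcortical library of mouse 1 held more than any other, and it also had the highest oligodendrocyte marker sum, 5660 CPM. Cortical libraries averaged 17.6 ± 2.97 CPM and subcortical ones 39.1 ± 18.7 CPM (SD, n = 4 each), 2.21-fold lower in cortical astrocytes (log2 fold change -1.15 ± 0.32 SE, edgeR adjusted p = 0.0283). Without the subcortical library of mouse 1 the log2 fold change was -0.76 and Efnb3 was not called (adjusted p = 0.238). The call was also lost without the cortical library of mouse 1, 2 or 3 (0.0749, 0.0562 and 0.1), with log2 fold changes of -1.12, -1.17 and -1.05. The summed oligodendrocyte and progenitor lists were higher in every subcortical library, with Olig1 and Olig2 the only called genes of the progenitor list. The part of RNA of these cells in the levels of Efnb3, Unc5b and Nrp1 was not tested.

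No other ephrin changed. Efna2, an A-class ephrin and the most abundant ligand of the family, had 52.6, 71.7, 57.9 and 53.5 CPM in cortical libraries, against 103, 87.0, 54.2 and 97.8 CPM in subcortical ones. Mouse 3 alone brought the groups into overlap (log2 fold change -0.54, edgeR adjusted p = 0.19). Efnb1 averaged 19.9 ± 5.25 CPM in cortical libraries, against 32.2 ± 12.2 CPM in subcortical ones (SD, n = 4 each; adjusted p = 0.267). Among reads of B-class ephrins the share of Efnb3 was 46.3 ± 6.23% in cortical and 54.4 ± 6.19% in subcortical libraries. Efnb2 had 6, 0, 0 and 12 reads in cortical libraries and 0 in every subcortical one, and Efna3 had 14 reads in the cortical library of mouse 4, 0 in the other cortical ones and 1 in subcortical libraries. Both were under the filter of the main test. With no filter but 15 reads in all, neither passed (edgeR adjusted p = 0.313 and 0.607). The Eph receptors Ephb2 and Epha7 were also below the filter, with 8 and 28 cortical against 45 and 81 subcortical reads (0.291 and 0.335), and 63 of the 81 Epha7 reads were in the subcortical library of mouse 4.

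The Slit and Robo families were represented by few genes. Slit2, the main secreted repellent, had 3.97, 6.52, 4.205 and 8.91 CPM in cortical libraries, against 5.41, 7.69, 3.49 and 4.74 CPM in subcortical ones, with no separation (log2 fold change 0.15, edgeR adjusted p = 0.948). Slit1 and Slit3 had 11 reads together. Robo1, a receptor for Slits, had 19.4, 18.2, 8.41 and 22.9 CPM in cortical libraries, against 27.5, 26.4, 22.4 and 28.1 CPM in subcortical ones. Only the cortical library of mouse 4 reached the subcortical range (log2 fold change -0.60, adjusted p = 0.381). Robo2 (ENSMUSG00000052516), its paralog, had 5.21, 18.8, 12.8 and 14.0 CPM in cortical libraries, against 0.416, 7.69, 2.10 and 0.836 CPM in subcortical ones. It was higher in the cortical library of each mouse, while mouse 2 was high and mouse 1 low in both regions, so that the groups overlapped. Cortical libraries averaged 12.7 ± 5.62 CPM and subcortical ones 2.76 ± 3.36 CPM (SD, n = 4 each; log2 fold change 2.25 ± 0.73 SE), not called in the unpaired test (edgeR adjusted p = 0.072) and called with the mouse as a block (log2 fold change 2.68, adjusted p = 0.0212). With the block 4 guidance genes were higher and 3 lower in cortical astrocytes, beside backgrounds of 3.72% and 3.79%, the same 6 genes and Robo2.

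**Figure D3:**
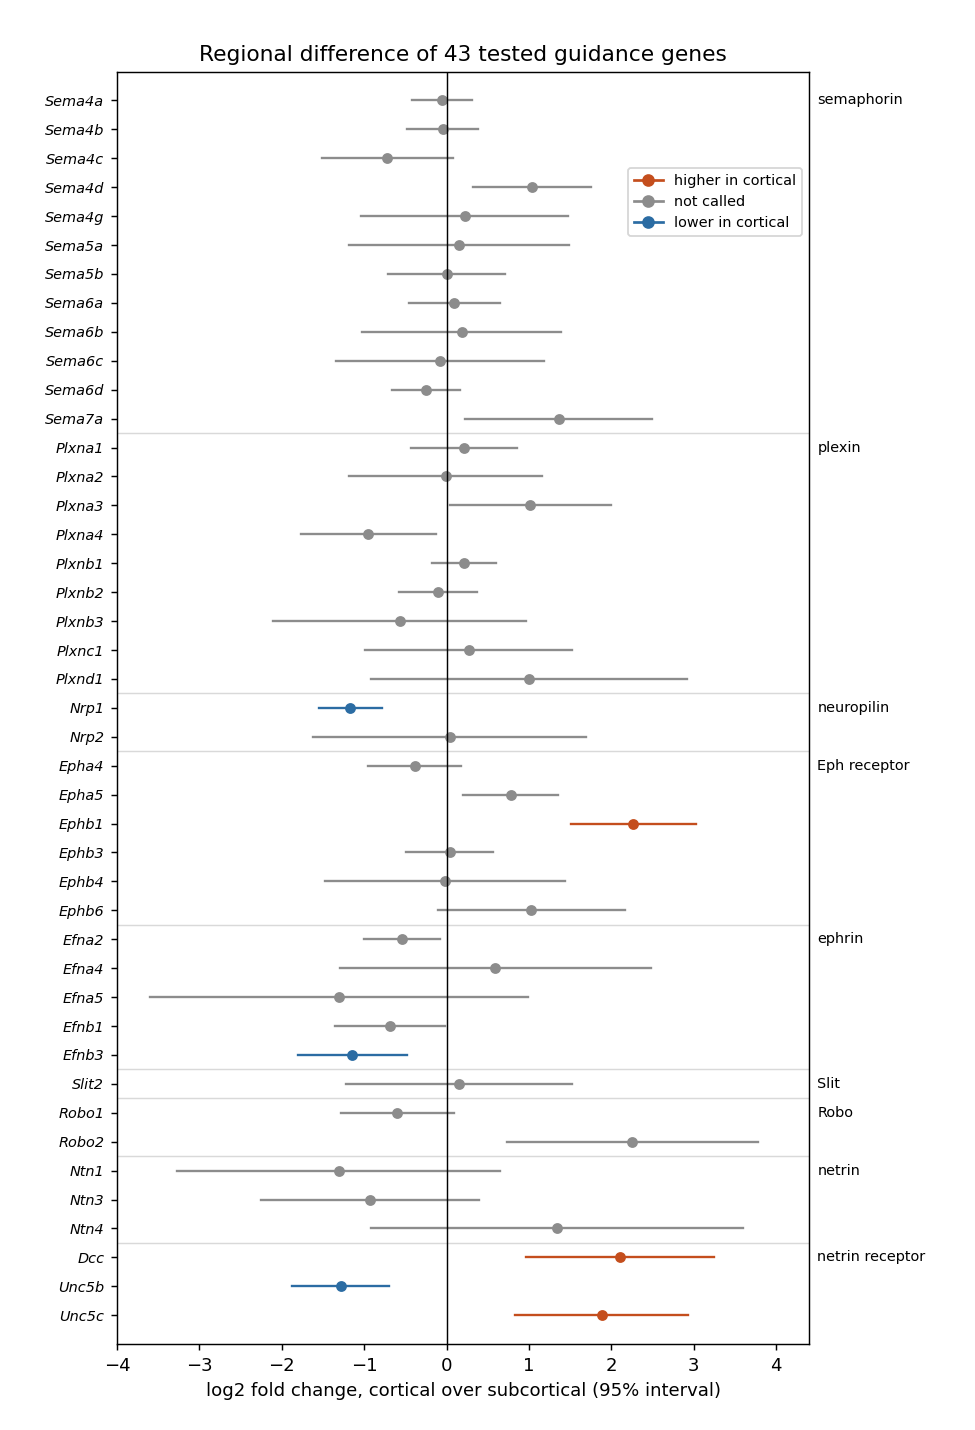
Log2 fold change of cortical over subcortical astrocytes with its 95% interval for the 43 tested guidance genes, ordered by family. Ephb1, Dcc and Unc5c lie to the right with intervals above 0, Unc5b, Nrp1 and Efnb3 to the left, and the intervals of most semaphorins and plexins cross 0.

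Across the 43 genes the regions did not overlap for 5 genes higher in cortical astrocytes (11.6%, background 6.54%) and 3 lower ones (6.98%, background 5.64%). The 2 that were not called were Sema4d and Epha5. All 4 mice had the higher value in cortical tissue for 9 of the 43 genes, against a background of 13.3% of all tested genes. They had the lower value for 6 of the 43, which is near the background of 13.1%. The 37 genes that were not called had adjusted p between 0.072 and 1. For 11 of them the 95% interval excluded a 2-fold difference, and for 26 it did not, so that a difference of that size lay within the interval.

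Other genes of the guidance pathways were read from 3 lists. Of 122 genes found in the files 100 were tested, and 6 were higher and 7 lower in cortical astrocytes (13% of those tested, beside the background of 6.81% of all tested genes, 3.42% higher and 3.39% lower), with a median log2 fold change of -0.04. Among 24 tested co-receptors and further ligands, Islr2, a membrane protein that interacts with axon growth receptors, was higher and 4 genes were lower. Islr2 had 11.2, 25.0, 27.3 and 9.88 CPM in cortical libraries, against 0.416, 0, 0 and 1.11 CPM in subcortical libraries (log2 fold change 5.28 ± 0.77 SE, edgeR adjusted p = 8.4e-05). The subcortical values came from 1, 0, 0 and 4 reads, so that the size of this fold is uncertain. Flrt2, a ligand of Unc5-family receptors, averaged 27.7 ± 9.66 CPM in cortical libraries, against 110 ± 34.4 CPM in subcortical ones (SD, n = 4 each; log2 fold change -1.99, adjusted p = 4.1e-05). The adhesion proteins Chl1 and Cntn1, of which Chl1 is a known partner of neuropilin 1, had log2 fold changes of -1.75 (3.2e-07) and -1.70 (2.3e-05). Sdc3, a heparan sulfate proteoglycan, had -1.73 (7.8e-07). Neo1, the other receptor of the Dcc family, was not called (-0.47, adjusted p = 0.16), and neither was Vegfa, the growth factor ligand of neuropilin 1 (0.20, adjusted p = 0.61).

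Of 68 tested intracellular mediators 4 were higher and 2 lower, and this 8.82% is near the background of 6.81%. The Slit-Robo GTPase-activating genes were split: Srgap3 (log2 fold change 0.73, edgeR adjusted p = 0.00665) and Srgap2 (1.10, 0.0186) were higher, and Srgap1 (-1.21, 1.2e-04) was lower. Ngef, encoding ephexin, an exchange factor that acts downstream of EphA receptors, averaged 233 ± 39.7 CPM in cortical libraries, against 90.6 ± 22.7 CPM in subcortical ones (SD, n = 4 each; log2 fold change 1.36, adjusted p = 8.4e-05). The kinase gene Pak1, which links Rac to the actin skeleton, was higher (1.43, 0.00163), and Limk2, a kinase that acts on cofilin, was lower (-0.67, 0.0499; 0.0606 with the mouse as a block). Of 8 tested proteases Furin, which processes semaphorin precursors, was higher (0.81, 0.0462), and Mmp14, a membrane-bound metalloproteinase, was lower (-1.29, 8.3e-05). Summed astrocyte, neuron and oligodendrocyte marker levels also differed between the regions, as given above, and their part in the guidance and pathway genes was not tested.

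The series title names female mice, and the 4 animals allow a look at sex. Female against male mice showed no changed guidance gene among 45 tested on counts summed per mouse, 2 mice against 2, where 5 of 13402 genes passed (0.0373%, edgeR adjusted p under 0.05). Epha4 (log2 fold change -0.58, unadjusted p = 0.0267) and Ephb6 (1.07, unadjusted p = 0.0495) were under 0.05 before adjustment, 2 of 45 beside a background of 3.73%, and DESeq2 also called 0. Without mouse 1 a single male was left, assumed to vary like the females, and in that fit 30 of 14642 genes passed, Ephb3 among them (log2 fold change 1.13, edgeR adjusted p = 0.0414).

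No guidance gene of 43 passed edgeR's test of the interaction, which asks whether the regional difference depends on sex, and the background was 0% of 11781 genes. Sema5b (log2 difference 1.346, female minus male, unadjusted p = 0.0194) and Sema4b (0.87, unadjusted p = 0.0367) were under 0.05 before adjustment, beside a background of 3.42%, and DESeq2 called 0. Unc5c had log2 fold changes of 3.09 in females and 1.13 in males, a difference of 1.96 ± 0.97 (SE, unadjusted p = 0.058). Its subcortical library of mouse 4, a male, had 14.2 CPM, against 1.44 to 4.19 CPM in the other subcortical libraries. The regional difference within each sex was taken from the same fit, which estimated spread over the libraries of both sexes. In females Unc5c was called (background 2.55%), and in males Ephb1 and Nrp1 were (background 2.57%).

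**Figure D4:**
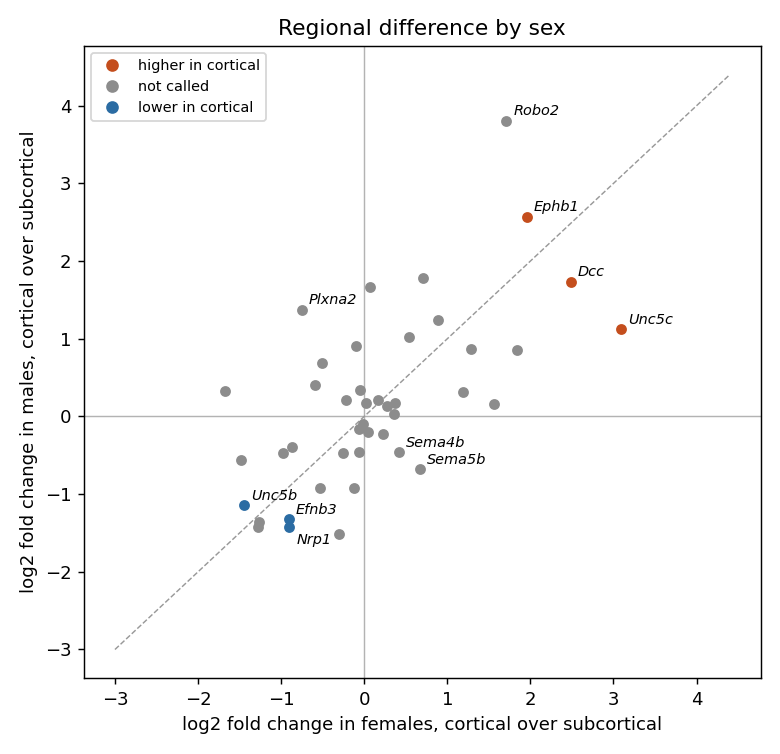
Log2 fold change of cortical over subcortical astrocytes in females (x axis) and males (y axis) for the 43 tested guidance genes, with the line of equal values dashed. The 6 called genes, called on all 4 mice with 1 direction in each, lie on 1 side of 0 in both sexes. Unc5c lies at 3.09 in females and 1.13 in males, where the subcortical library of mouse 4 was high.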

How the data were processed

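Astrocytes sorted from cortical and subcortical tissue of the same 4 mice gave 8 libraries. Per the labels' protocols, QuantSeq 3′ FWD libraries were made from RNA that had been isolated with an RNeasy Plus Micro kit. STAR 2.6.0, HTSeq 0.9.0, FastQC 0.11.5, DESeq2 1.35.0 and the build GRCm39 appear in the submitters' processing notes; the sources used here give neither the strand setting nor the use of molecular identifiers, and values of overlapping genes are therefore uncertain. What the authors deposited are read counts for each gene, and these were used unchanged. Reads of no feature, 30.2 to 40.7% of a library, stayed out of library sizes. A table of normalized values for the series was not used here, and its columns, 8 of per-sample values, entered no step.

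Of 55417 gene rows 52083 had a symbol, found by identifier; 3 antisense symbols were left out. The main test was edgeR 4.0.16 in R 4.3.3 (filterByExpr with 10 counts and a total of 15, TMM factors, 4 libraries against 4), adjusted over all genes. CPM use TMM library sizes. Sex was tested on counts summed per mouse, and the interaction in a fit with a mean per sex and region. A step on simulated counts with 200 changed genes was run first. Alternatives were RLE factors, raw totals, DESeq2 1.42.0, limma-voom (limma 3.58.1), other filters and thresholds, the mouse as a block, and each library left out. Values in females or in males are contrasts within the fit with a mean per sex and region, on all libraries. Libraries of a region are different animals and differed beyond counting noise (their chi-square was 12.1 to 24.7 times its degrees of freedom).

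Samples were paired by the mouse number in their titles, because 1 animal gave both regions. As a check, library deviations from their region's mean correlated over genes at 0.0195 to 0.0592 between samples of 1 mouse and at -0.0841 to 0.0471 between mice. The ranges overlapped and all values were small, so this check could not tell pairs of 1 mouse from other pairs. The pairing rests on the titles.

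Values per library are given for guidance genes called in the main test or by the block alone, for the most abundant gene of each family and, chosen after their values were seen, for Sema4d and Epha5. Pathway genes are named when called, up to 6 per list by p. Neo1 and Vegfa were named after their values were seen. The genes, lists and tests were chosen with earlier results of these data known, and the GC box was added after the promoters were seen. Genes just above the 15-read limit were Efna3 (15) and Efnb2 (18), and Efna1, Sema3e and Sema3b (13 each) lay just under it. Promoters came from RefSeq, GRCm38.p6, another build than that of the counts, with entries for 37 guidance genes.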

Additional observations from a re-analysis of the deposited data

Results flagged for a closer look

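Among 86 groups of 4 libraries, 1 per region and tested gene, 4 held a library set apart from the other 3 by a gap above Dixon's 95% critical value. Chance alone flags about 1 group in 20. Efnb3 had 67.0 CPM in the subcortical library of mouse 1 and 27.6 to 32.7 CPM in the other subcortical libraries. Ephb1 had 50.1 CPM in the cortical library of mouse 2 and 79.4 to 80.1 CPM in the other cortical libraries. Plxnb1 had 201 CPM in the subcortical library of mouse 3, against 135 to 141 CPM in the others. Nrp2 had 2.40 CPM in the subcortical library of mouse 2, against 3.90 to 4.19 CPM in the others.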

How the results depend on the processing

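In the main test 3 guidance genes were higher and 3 lower in cortical astrocytes. The count of higher genes was 6 with raw library totals, which moved the median of all genes by 0.20 on the log2 scale, and 1 with limma-voom, with an adjusted p under 0.01, with a test against a 1.5-fold change, in females and in males. The count of lower genes was 1 against a 1.5-fold change, 0 in females and 1 in males. With each library left out in turn 1 to 3 were higher (1 without the cortical library of mouse 2 or of mouse 3) and 2 to 3 lower. Equal counts could hold other genes. Without the subcortical library of mouse 2, Robo2 was called (edgeR adjusted p = 0.0077) and Unc5c was not (0.0551). Without that of mouse 3 the count was 3 although Unc5c (0.0657) and Robo2 (0.145) were not called, so that another guidance gene was among them. Of the pathway genes, the count of higher ones, 6 in the main test, was 3 against a 1.5-fold change, 2 in females and in males, and 4 to 6 when a library was left out; the count of lower ones, 7 in the main test, was 6 to 8 when a library was left out and 9 with DESeq2. Over all genes 802 were called in the main test, 477 at 0.01, 333 against a 1.5-fold change, 301 in females, 303 in males and 614 to 775 with a library left out. The sex test called 0 to 1 guidance genes with a mouse left out, and the interaction 0 under every setting. The replicate block, justified by the shared animal, gave 885 genes, and 4 guidance genes higher and 3 lower; it added Robo2, which was also called by DESeq2 (adjusted p = 0.023), and removed none. Robo2 without single libraries ranged in adjusted p over 0.0077 to 0.219.

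The log2 fold changes of the 6 called genes were recomputed 120 times; 89 values kept direction and call, 31 kept direction alone and 0 reversed. Limma-voom did not call Dcc (adjusted p = 0.0995), Unc5c (0.0534) or Efnb3 (0.0549), and raw totals did not call Efnb3 (0.08); the cause was not tested. Values near 0 changed sign: Sema4a (-0.06) was 0.16 with raw totals and -0.18 to 0.057 with a library left out, positive without the cortical library of mouse 2 or the subcortical one of mouse 4. Ephb3 (0.04) was -0.0022 with the replicate block, -0.22 in males and -0.19 to 0.26 with a library left out, negative without the cortical library of mouse 3 or the subcortical one of mouse 4. Slit2 (0.15) was -0.0494 in females and -0.12 to 0.37 with a library left out, negative without the cortical library of mouse 4 or the subcortical one of mouse 3. For 26 of 37 genes without a call the 95% interval reached 2-fold; depth and spread between animals were not told apart.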
